A study of Mus musculus with 12 samples.

Results

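The synapsin genes Syn1 and Syn2 were read by 4 probe sets of an Affymetrix array, 1 for Syn1 and 3 for Syn2, in the hippocampus of mice lacking CREB and CREM and of control mice. The members are all probe sets whose platform symbol is Syn1 or Syn2, which makes 2 genes of the 5928 named on the array and 4 of its 11868 probe sets other than controls. The 4 groups, on 3 arrays each, were mutant mice given kainate, mutant mice given saline, control mice given kainate and control mice given saline. Mutant mice lack the transcription factors CREB and CREM per the title of the series. Which alleles and which driver, if any, removed the factors is not stated in the labels used here. Kainate is an agonist of glutamate receptors that evokes seizures and strong firing of hippocampal neurons. It was injected into the peritoneum at 20 mg/kg, and hippocampi were taken after 1 hour. The mice were littermates of both sexes, 5 to 6 weeks old, singly caged and handled for 5 days. Each array holds the pooled RNA of 3 mice, so p-values measure the spread between pools and not between single animals.

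Synapsins are abundant phosphoproteins on the cytoplasmic face of synaptic vesicles. They tether vesicles to one another and to actin in the reserve pool of the nerve terminal, and kinases that act during firing, among them protein kinase A and calcium/calmodulin-dependent kinases, release that tether. Syn1 and Syn2 are the main synapsins of adult nerve terminals and are made by most neurons of the hippocampus. The comparisons ask whether 1 hour of kainate changed their transcripts, and whether loss of CREB and CREM did.

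Syn1 lies on chromosome X, positions 20860511 to 20920918 on the minus strand, and Syn2 on chromosome 6, positions 115134902 to 115282626 on the plus strand (RefSeq, GRCm38.p6). Where in the genes the probes lie is not given in the files used here. Both promoters are shown because CREB is the factor that the mutants lack and EGR factors are induced by firing. Each window runs from 250 bases before to 50 bases after the gene's start, 5′ to 3′ on the gene's strand, at chrX:20920869-20921168 for Syn1 and chr6:115134652-115134951 for Syn2. Capitals mark the cyclic AMP response element (CRE, TGACGTCA) and the core of the RE1 element (CAGCACC, any 2 bases, GG, any base, CAG), which the silencer REST binds, in Syn1. In Syn2 they mark an EGR motif (GCGTGGGCG or GCGGGGGCG). The motifs were chosen with the sequences in view.
Syn1 promoter: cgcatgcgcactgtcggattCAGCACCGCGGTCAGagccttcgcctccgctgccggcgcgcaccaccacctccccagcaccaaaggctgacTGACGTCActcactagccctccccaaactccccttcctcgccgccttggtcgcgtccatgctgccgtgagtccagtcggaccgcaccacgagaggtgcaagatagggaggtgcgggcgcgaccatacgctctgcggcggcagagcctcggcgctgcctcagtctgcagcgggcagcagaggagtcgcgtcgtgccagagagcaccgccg
Syn2 promoter: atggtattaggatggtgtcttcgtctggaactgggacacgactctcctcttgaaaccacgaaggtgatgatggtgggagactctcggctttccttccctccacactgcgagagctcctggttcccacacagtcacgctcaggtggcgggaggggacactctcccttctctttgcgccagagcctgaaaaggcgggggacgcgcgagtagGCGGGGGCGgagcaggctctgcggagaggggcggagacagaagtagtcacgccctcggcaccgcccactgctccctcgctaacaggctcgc

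The Syn1 window held 1 CRE, whose first base lies 159 bases before the start, and 1 RE1 core, whose first base lies 230 bases before it. It held no EGR motif and no GC box (GGGCGG, the letters that SP1 binds). On both strands, the CRE was found in 1.79% of 32851 mouse promoter windows of the same length and the RE1 core in 0.0578%. The Syn2 window held no CRE, no CRE half-site (TGACG) and no RE1 core. It held 1 EGR motif, 41 bases before the start, which overlaps 1 of its 3 GC boxes. An EGR motif was found in 3.47% of windows and a GC box in 35.7%. A second RefSeq window of Syn2, at chr6:115238744-115239043, held none of these motifs. A match of letters is a description and shows no binding.

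Values are the authors' GCRMA signals on the log2 scale. Of 11868 probe sets, 3541 (29.8%) reached log2 4 on at least 3 of the 12 arrays and were tested, among them all 4 of Syn1 and Syn2. Several arrays stood apart from their groups. The 4 arrays numbered 1 resembled one another across groups (pairwise r 0.987 to 0.992) more than they did replicates 2 and 3 of their groups (r 0.818 to 0.968). Replicate 1 and replicates 2 and 3 are therefore treated as 2 batches seen in the data, and averaged differences of the synapsins are given within each of them too. Mutant kainate replicate 3 was compressed, with an SD over probe sets of 1.52 against 1.71 to 1.78 on the other arrays. A score was built from the 50 probe sets of lowest limma p between the genotypes on the saline arrays. It puts the control saline mean at 0 and the mutant saline mean at 1. On it the library labelled control kainate replicate 3 fell at 0.936, while control kainate replicates 1 and 2 fell at -0.0658 and 0.173. Mutant kainate replicates 1, 2 and 3 fell at 0.729, 1.21 and 1.35. The main results are given with and without these 2 arrays, called the doubted arrays. On the list of hippocampal excitatory neuron markers 1 of 8 genes had a named probe set, and 0 passed the filter. The same held for the 8 general neuron markers, so the tissue was not checked by either list.

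Syn1 read higher after kainate in both genotypes, by 1.43-fold on average, but the difference did not pass over all probe sets. Its probe set, 137221_f_at, read 7.40, 7.52 and 7.30 in mutant kainate replicates 1, 2 and 3, against 7.23, 6.52 and 6.65 in mutant saline. It read 7.31, 7.30 and 7.46 in control kainate, against 7.30, 6.71 and 6.80 in control saline. All 6 kainate arrays lay above all 6 saline arrays, though by a thin margin, the lowest kainate array being at 7.296 and the highest saline array at 7.295. Over the tested probe sets 0.395% showed such a complete separation upwards. Without the doubted arrays the groups still did not overlap, as was the case for 1.02% of probe sets.

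The averaged kainate difference of Syn1 was 0.51 ± 0.14 (SE, 6 arrays against 6; 95% interval 0.20 to 0.83; adjusted p = 0.349), rank 49 of 3541 by p-value. In that comparison 5 probe sets passed an adjusted p under 0.05, 0.141% of those tested, and 0 of the 4 synapsin probe sets. With arrays weighted by quality Syn1 would pass (0.65, limma adjusted p = 0.0017), but so would 1018 of 3541 probe sets, and the estimate of the weights did not converge. In mutant mice the difference was 0.60 ± 0.20 (adjusted p = 0.579), with means of 7.40 ± 0.11 after kainate and 6.80 ± 0.38 after saline (SD, n = 3 arrays each). In control mice it was 0.42 ± 0.20 (adjusted p = 1), with means of 7.36 ± 0.09 after kainate and 6.94 ± 0.31 after saline. The kainate difference of mutants minus that of controls was 0.18 ± 0.28 (95% interval -0.45 to 0.82; adjusted p = 0.973). The groups did not overlap in mutants, as for 1.67% of probe sets, nor in controls, as for 6.02%. In each genotype alone 1 probe set passed (0.0282%), which was none of the synapsins. For the interaction and the 3 comparisons of mutant with control 0 of 3541 probe sets (0%) passed by limma. At an unadjusted p under 0.05 there were 31 (0.875%) for the interaction, 428 (12.1%) for genotype after saline, 167 (4.72%) after kainate and 677 (19.1%) averaged.

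The Syn1 difference lay almost wholly in replicates 2 and 3. Within them the 4 kainate arrays read 7.30 to 7.52 and the 4 saline arrays 6.52 to 6.80, an averaged difference of 0.72, and 3.87% of probe sets separated upwards on these 8 arrays. Within replicate 1 the kainate arrays read 7.40 and 7.31 and the saline arrays 7.23 and 7.30, a difference of 0.09. The kainate arrays thus stood at a like level in all replicates, and the 4 saline arrays of replicates 2 and 3 were the low ones. A control for RNA quality, the beta-actin 3′ minus 5′ signal, also separated kainate from saline in replicates 2 and 3. On it the kainate arrays, at 2.20 to 2.44, were the ones that stood apart. The saline arrays, at 1.74 to 1.83, lay within the 1.61 to 2.00 of replicate 1. The Gapdh 3′ minus 5′ signal was 0.12 to 0.32 on these kainate arrays, 0.01 to 0.12 on these saline arrays and -0.15 to -0.08 in replicate 1. The part of RNA quality in the Syn1 difference was not tested.

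**Figure D1:**
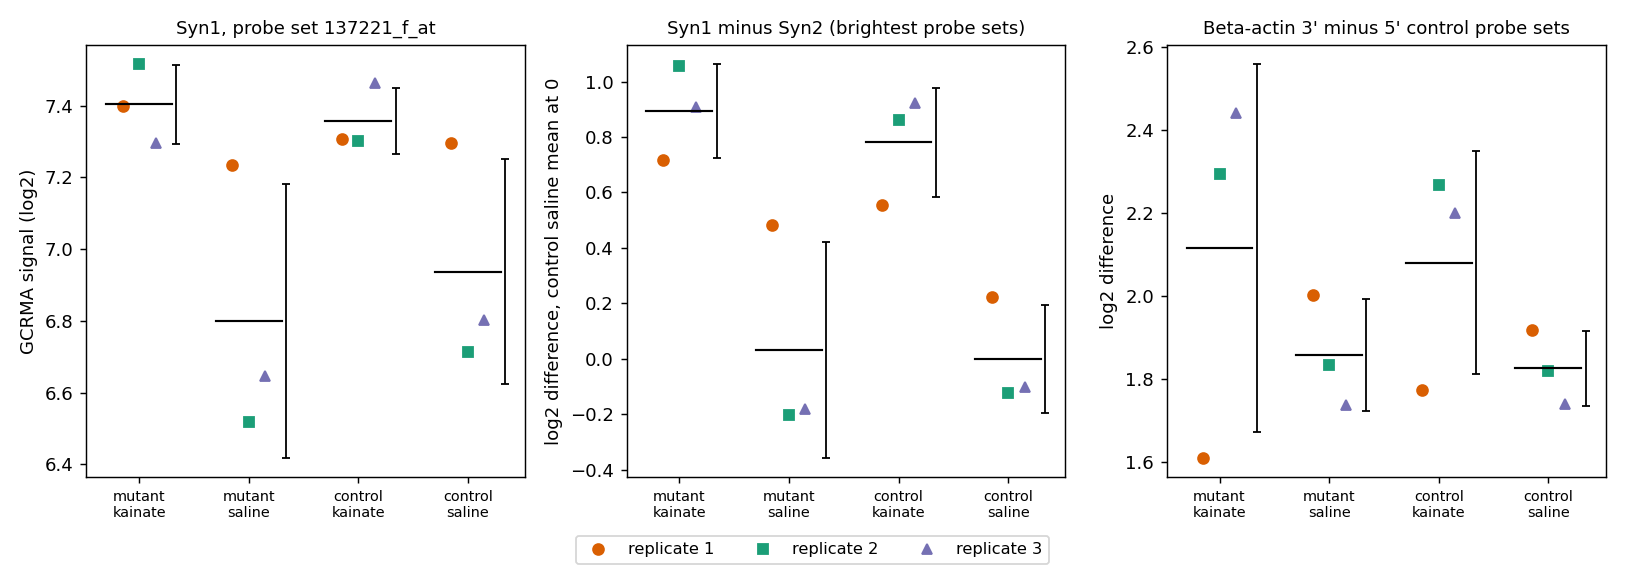
Each point is 1 array, marked by replicate, with the group mean as a bar and the SD (n = 3) as a whisker: Syn1 signal (log2), Syn1 minus the brightest Syn2 probe set (log2, control saline mean at 0), and beta-actin 3′ minus 5′ (log2). In replicates 2 and 3 the kainate arrays lie above the saline arrays in all 3 panels, with Syn1 at 7.30 to 7.52 against 6.52 to 6.80.

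Of the Syn2 probe sets the brightest, 165743_at, read lower after kainate in both genotypes and likewise did not pass. It read 11.92, 11.70 and 11.63 in mutant kainate replicates 1, 2 and 3, against 11.99, 11.96 and 12.07 in mutant saline. It read 11.99, 11.68 and 11.78 in control kainate, against 12.31, 12.07 and 12.14 in control saline. Within each genotype all kainate arrays lay below all saline arrays, which held for 8.44% of probe sets in mutants and 4.63% in controls. Across the genotypes the groups overlapped, since control kainate replicate 1 lay above mutant saline replicates 1 and 2.

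The averaged kainate difference of this probe set was -0.31 ± 0.08 (95% interval -0.48 to -0.14; adjusted p = 0.347), 0.808-fold, rank 24 of 3541 by p-value. It was -0.26 ± 0.11 in mutants (adjusted p = 0.579) and -0.36 ± 0.11 in controls (adjusted p = 1), and the mutant minus the control difference was 0.10 ± 0.15 (95% interval -0.23 to 0.44). Like Syn1 it had the same sign in both batches, at -0.19 within replicate 1 and -0.36 within replicates 2 and 3. On the 8 arrays of replicates 2 and 3 the kainate arrays (11.63 to 11.78) lay below the saline arrays (11.96 to 12.14), where 12.1% of probe sets separated downwards. Bright signals in general leaned downwards: the 188 probe sets with a mean of log2 9 and above had a median kainate difference of -0.10, and of 0.04 without the doubted arrays. Without those arrays this Syn2 probe set was at -0.27 ± 0.08 (adjusted p = 0.506).

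The second bright Syn2 probe set, 138495_f_at, did not show this. It read 11.32, 11.02 and 10.01 in mutant kainate replicates 1, 2 and 3, against 11.20, 11.11 and 11.22 in mutant saline. It read 10.99, 10.95 and 11.39 in control kainate, against 10.80, 10.84 and 10.92 in control saline. The low value of 10.01 is on the compressed array, and the high one of 11.39 on the control kainate array with the high genotype score. In controls the 3 kainate arrays lay above the 3 saline arrays (0.26 ± 0.28, adjusted p = 1), as they did for 6.02% of probe sets, and in mutants the groups overlapped (-0.40 ± 0.28, adjusted p = 0.637). The averaged difference was -0.07 ± 0.20, at 0.15 in the first batch (replicate 1) and -0.18 in the second (replicates 2 and 3). Leaving out the doubted arrays gave 0.05 ± 0.07, so its sign turned between batches and with these arrays. By Affymetrix's naming, the ending f marks a probe set whose probes are shared by a family of sequences, which also applies to the Syn1 probe set. Signal from other transcripts in either cannot be told apart here.

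The third Syn2 probe set, 140195_at, was dim. It ran from 3.97 to 4.21 over the 12 arrays and reached log2 4 on 9 of them, which is why it was tested at all. It read 4.02, 4.21 and 4.19 in mutant kainate, against 4.06, 4.10 and 4.04 in mutant saline, and 4.06, 3.97 and 3.99 in control kainate, against 4.003, 3.99 and 4.01 in control saline. Its averaged kainate difference was 0.04 ± 0.04 (95% interval -0.05 to 0.14), with 0.0099 within replicate 1 and 0.06 within replicates 2 and 3. Values this near the dim level carry little about size, and the expressed sequence tag behind this probe set is not among the names RefSeq lists for Syn2, while those of the other Syn2 probe sets are. The tag of the Syn1 probe set is not among the names listed for Syn1 either.

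**Figure D2:**
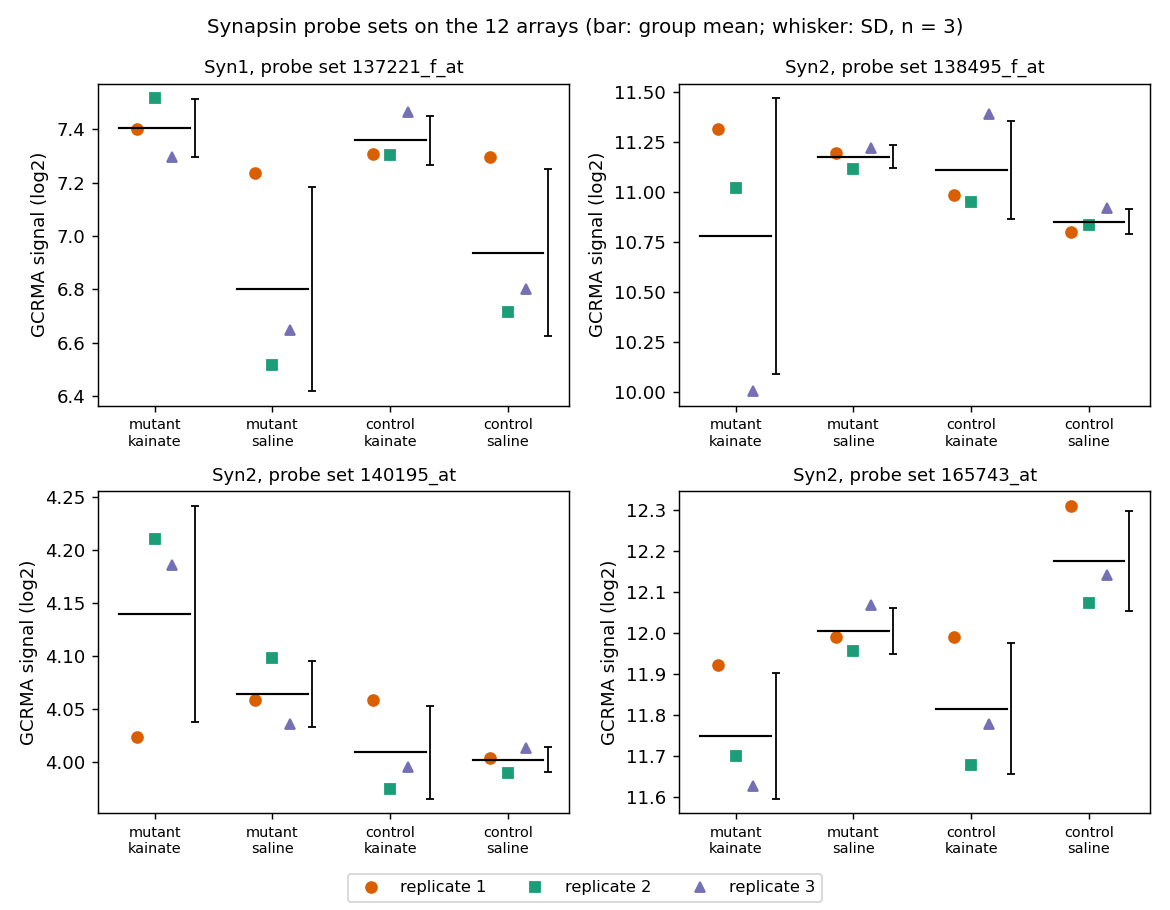
GCRMA signal (log2) of the 4 synapsin probe sets on the 12 arrays, by group, with each replicate as its own marker, the group mean as a bar and the SD (n = 3) as a whisker; each panel has its own axis. Syn1 137221_f_at is lowest on the saline arrays of replicates 2 and 3, Syn2 165743_at is lower after kainate in each genotype, and Syn2 138495_f_at has its extremes on the replicate 3 kainate arrays.

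Whether the probe sets responded differently was tested on the signal of 1 minus that of another on the same array, which removes what shifts both alike. The test was an exact permutation of kainate and saline within genotype (two-sided, 400 arrangements, smallest possible p of 0.005), over 4 pairs. Syn1 minus Syn2 165743_at, with the control saline mean set at 0, was 0.72, 1.05 and 0.91 in mutant kainate, against 0.48, -0.20 and -0.18 in mutant saline. It was 0.56, 0.86 and 0.92 in control kainate, against 0.22, -0.12 and -0.10 in control saline. Every kainate array lay above every saline array, and the ratio of Syn1 to Syn2 165743_at signal was higher after kainate. How often other pairs of probe sets separate in this way was not tested. Syn1 was not paired with the other bright Syn2 probe set, 138495_f_at, so the result holds for 165743_at alone. The kainate difference in controls was 0.42 for Syn1 and 0.26 for 138495_f_at, and in mutants 0.60 and -0.40.

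The responses of these 2 probe sets differed by 0.82 (exact permutation p = 0.005, the smallest possible; 0.02 adjusted over the 4 pairs). The difference had the same sign in both batches but unequal size, 0.28 within replicate 1 and 1.09 within replicates 2 and 3. Without the doubted arrays, and without any 1 array in turn, it passed in each case (exact permutation, adjusted p-values of 0.0133 to 0.0267). With labels moved only within batch it passed (exact permutation, 144 arrangements, adjusted p = 0.0278). With labels moved only within replicate number it did not (exact permutation, 64 arrangements, adjusted p = 0.0625), where the smallest unadjusted p possible, 0.0312, was reached. The pair was chosen with the earlier result for both genes known, so this test carries no independent support. The RNA quality values given above also differed between kainate and saline in replicates 2 and 3.

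Within Syn2, the dim 140195_at (0.04) and the bright 165743_at (-0.31) differed in kainate response by 0.35 (exact permutation p = 0.01, adjusted p = 0.02 over the 4 pairs). Since the dim signal hardly varied, this value restates the change of 165743_at and does not show that the probe sets disagree. It did not pass without mutant saline replicate 3 (0.33, exact permutation, adjusted p = 0.05) or with labels moved only within replicate number (exact permutation, adjusted p = 0.0625). The bright pair, 138495_f_at and 165743_at, differed by 0.24 (exact permutation p = 0.31, adjusted p = 0.413) with all arrays. Without the doubted arrays the difference was 0.32 (exact permutation, adjusted p = 0.0267), and without mutant kainate replicate 3 alone 0.40 (exact permutation, adjusted p = 0.0133). The bright pair thus passed as different only with the compressed array left out. The pair of 138495_f_at and 140195_at differed by -0.11 (exact permutation, adjusted p = 0.78).

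Loss of CREB and CREM gave no called difference for Syn1. The 6 mutant arrays ran from 6.52 to 7.52 with a median of 7.27, and the 6 control arrays from 6.71 to 7.46 with a median of 7.30. The difference averaged over treatments was -0.05 ± 0.14 (95% interval -0.36 to 0.27; adjusted p = 0.849), with -0.14 ± 0.20 after saline and 0.05 ± 0.20 after kainate. Averaged over treatments it was 0.02 within replicate 1 and -0.08 within replicates 2 and 3. The CRE printed above in the Syn1 promoter stands beside these values as a description alone.

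For Syn2 the probe sets pointed different ways between genotypes. After saline, mutant arrays lay above control arrays on 138495_f_at (11.11 to 11.22 against 10.80 to 10.92; 0.33 ± 0.28, adjusted p = 0.805) and below them on 165743_at (11.96 to 12.07 against 12.07 to 12.31; -0.17 ± 0.11, adjusted p = 0.602). Neither passed, and after saline 29% of probe sets separated upwards and 5.11% downwards between the genotypes. The dim 140195_at also lay higher in mutant saline (4.04 to 4.10) than in control saline (3.99 to 4.01), a difference of 0.06 ± 0.06.

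Averaged over treatments, 138495_f_at differed by 0.00 ± 0.20 between mutants and controls with all 12 arrays (0.36 within replicate 1 and -0.18 within replicates 2 and 3), and by 0.26 ± 0.07 without the doubted arrays (adjusted p = 0.318). On the 10 remaining arrays it ran from 11.02 to 11.32 in mutants and from 10.80 to 10.99 in controls without overlap, as 0.762% of probe sets did in that direction. The averaged value of this probe set thus turned on these 2 arrays. The 165743_at difference was -0.12 ± 0.08 (adjusted p = 0.386), being -0.20 in replicate 1 and -0.08 in replicates 2 and 3, and -0.10 ± 0.08 without the doubted arrays. The dim 140195_at differed by 0.10 ± 0.04 (95% interval 0.00093 to 0.19; adjusted p = 0.260), being 0.0097 in replicate 1 and 0.14 in replicates 2 and 3. The genotype effects of the bright Syn2 probe sets differed by 0.12 (exact permutation, adjusted p = 0.845 over 4 pairs), and by 0.36 without the doubted arrays (exact permutation, adjusted p = 0.0667). No pair of the 4 passed for genotype with all arrays, the closest being 140195_at and 165743_at (0.21, exact permutation p = 0.04, adjusted p = 0.16). Without mutant kainate replicate 1 that pair passed (0.29, exact permutation, adjusted p = 0.02).

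**Figure D3:**
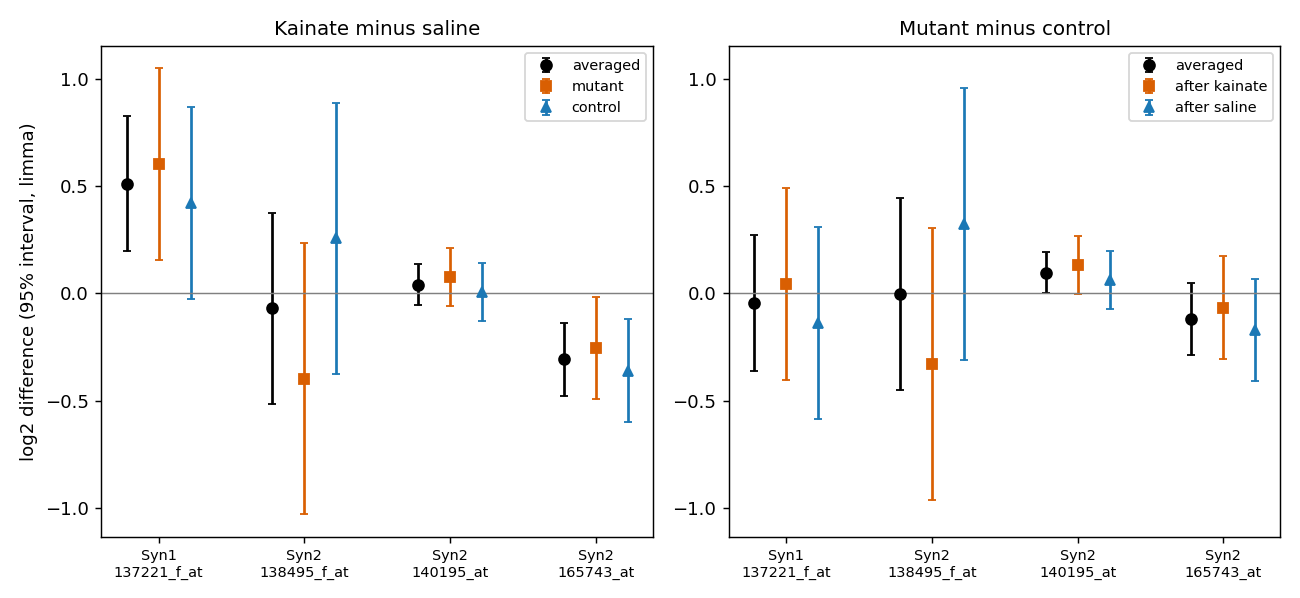
Differences (log2) of the 4 synapsin probe sets for kainate minus saline and for mutant minus control, averaged and within each level of the other factor, with 95% intervals from limma. For averaged kainate the interval of Syn1 lies above 0 and that of Syn2 165743_at below 0, while that of Syn1 in controls (-0.03 to 0.87) spans 0. For averaged genotype all span 0 but that of the dim 140195_at (0.00093 to 0.19).

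Other genes of the vesicle cycle gave the setting for these values. Of 144 genes on 5 lists 51 had a named probe set and 31 were measured, that is, passed the filter. Among these 0 passed the threshold higher and 0 lower in any of the 7 comparisons. For the averaged kainate effect 9 of the 31 were positive with a median of -0.14, where 31.6% of all tested probe sets were positive with a median of -0.04, and 5 (16.1%) had an unadjusted p under 0.05 where 11.3% of all did. Without the doubted arrays, an alternative chosen after seeing the data, 18 of 31 were positive with a median of 0.01, where the median of all was -0.02. For averaged genotype 5 of 31 were positive with a median of -0.26, where 48.9% of all were positive with a median of -0.0062. Without the doubted arrays 10 of 31 were positive with a median of -0.12, where the median of all was 0.03. An unadjusted limma p under 0.05 for genotype was then held by 16.1% of the 31 and 9.12% of all. With all 12 arrays these shares were 16.1% and 19.1%. The 941 probe sets with a mean of log2 6 to 9 had a median genotype difference of -0.26 as well, and of -0.06 without the doubted arrays.

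By role, 2 of the 12 measured genes of the vesicle membrane list (of 42) had a positive kainate difference, with a median of -0.0097 within replicate 1 and -0.21 within replicates 2 and 3. Its largest were -0.94 ± 0.48 for Rab3c, a vesicle GTPase (0.13 within replicate 1, -1.48 within replicates 2 and 3), and -0.89 ± 0.35 for Scamp1, a carrier membrane protein (-0.14 and -1.27). Further pairs of values in brackets give replicate 1 and then replicates 2 and 3. Single list genes are given with the doubted arrays included. The kainate median of the 31 genes was -0.14 with all 12 arrays and 0.01 without the doubted ones. Among 4 of 23 fusion genes Stxbp5, which encodes the syntaxin-binding tomosyn, had -0.51 ± 0.44 (0.31 and -0.92), and Vapb, an endoplasmic reticulum protein that binds VAMP, had 0.46 ± 0.14. Vapb shared the split seen in Syn1, with -0.06 within replicate 1 and 0.72 within replicates 2 and 3. Among 7 of 27 active zone genes Cacnb4, a calcium channel beta subunit, was at -0.45 ± 0.15 (-0.08 and -0.63), with all kainate arrays below all saline arrays as for 0.452% of probe sets. Ppfia2, the scaffold liprin-alpha-2, was at -0.30 ± 0.15 (0.0052 and -0.45). Among 4 of 32 endocytosis genes the adaptor subunit Ap3b2 had -0.41 ± 0.29 (0.24 and -0.74).

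Of 20 kinases and phosphatases that act on synapsins 7 had a named probe set and 4 were measured. Prkaca, the catalytic subunit of protein kinase A, differed by 0.10 ± 0.25 after kainate (0.61 within replicate 1, -0.16 within replicates 2 and 3) and the kinase Camk1g by 0.02 ± 0.24 (0.29 and -0.12). The phosphatase subunit Ppp2ca differed by -0.18 ± 0.31 (0.32 and -0.44) and the kinase Camk2d by -0.77 ± 0.29 (0.10 and -1.20). Camk2d had a mean of 3.96, below the dim level, so its size is uncertain. By genotype the largest differences in these lists were -0.75 ± 0.93 for the proton pump subunit Atp6v0a1 (-0.38 within replicate 1, -0.94 within replicates 2 and 3) and -0.66 ± 0.44 for Stxbp5 (-0.25 and -0.87). They were followed by -0.60 ± 0.31 for Ppp2ca (-0.39 and -0.71) and -0.59 ± 0.33 for Pclo, the scaffold piccolo (0.02 and -0.90). None of these passed.

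**Figure D4:**
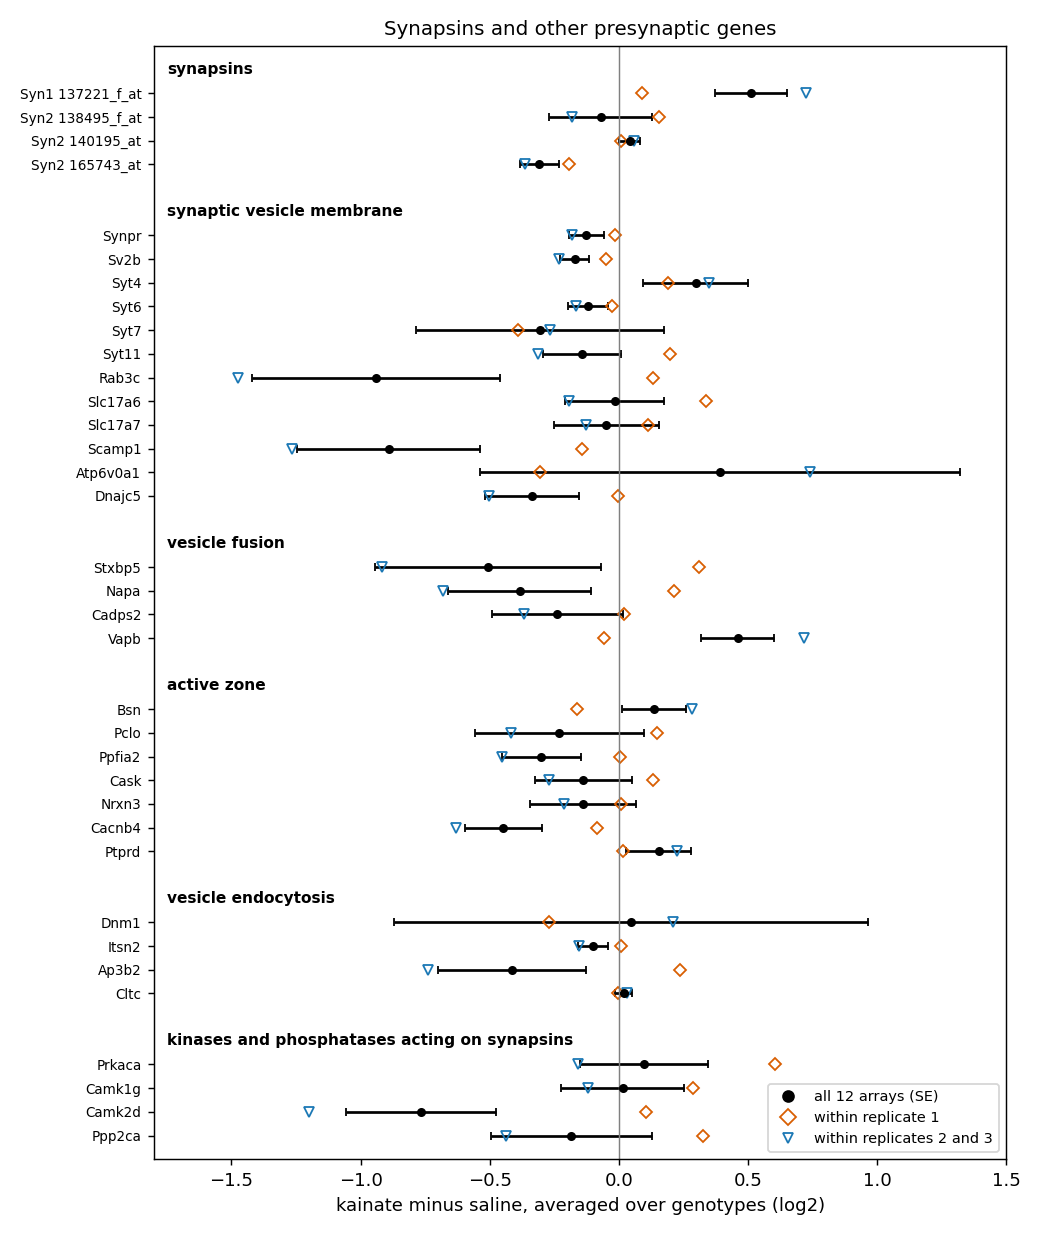
Kainate minus saline averaged over genotypes (log2) for the synapsin probe sets and 31 other presynaptic genes by role: filled points with SE for all 12 arrays, diamonds for replicate 1 and triangles for replicates 2 and 3. Syn1 and Vapb have triangles at 0.72 and diamonds near 0.

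Timp4, a metalloproteinase inhibitor gene that lies inside Syn2 on the opposite strand (chromosome 6, 115244444 to 115252205), ran from 7.30 to 8.99 on its probe set. Its kainate difference was 0.03 ± 0.26 (0.22 within replicate 1, -0.06 within replicates 2 and 3) and its genotype difference -0.30 ± 0.26 (0.07 and -0.49). Syn3, and Timp1, which lies inside Syn1, had no named probe set. Neither had any of the 5 sex-linked transcripts listed, so the share of each sex in a pool was not compared, although Syn1 is on the X chromosome. Of 11 astrocyte genes 4 were measured, all 4 positive for averaged kainate with a median of 0.31, at -0.07 within replicate 1 and 0.48 within replicates 2 and 3. In mutants alone 2 of 4 were positive (median 0.09), where 26.5% of all tested probe sets were positive. In controls 4 of 4 were positive (median 0.51), where 53.1% of all were. For averaged kainate 1 of 3 measured microglial genes, 0 of 1 oligodendrocyte gene, 1 of 2 interneuron genes and 1 of 1 endothelial gene were positive. The summed linear signal of the 4 astrocyte genes ran from 3148 to 8537 in mutant kainate and 4931 to 8266 in mutant saline. In control kainate it ran from 2965 to 8181 and in control saline from 1875 to 3148. This sum mostly reflects Gfap, with a mean of log2 12.05, where Slc1a2, Pla2g7 and Apoe had means of 5.97, 4.64 and 4.09. The 2 astrocyte genes with an unadjusted limma p under 0.05 for averaged kainate were Pla2g7 and Apoe, both near the dim level of log2 4. The part of these cell types in the synapsin values was not tested. In whole tissue fewer cells of a type and less RNA per cell cannot be told apart.

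The genes whose signal over the 12 arrays was most like that of Syn1 were Lsm12 (Pearson r = 0.955, and 0.954 over the 10 arrays without the doubted ones), Pttg1 (0.939 and 0.967) and Eri3 (0.934 and 0.941). For Syn2 165743_at they were Kirrel3 (0.919 and 0.907), Zswim3 (0.910 and 0.919) and Desi2 (0.909 and 0.895). For 138495_f_at they were Fgd3 (0.967 and 0.833), Pvt1 (0.960 and 0.833) and Dbx2 (0.952 and 0.740), each lower once the doubted arrays were left out. For the dim 140195_at they were Sucla2 (0.958 and 0.946), 1700031L13Rik (0.940 and 0.910) and Braf (0.912 and 0.872). These describe the same arrays, which share batch, pooling and normalization.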

How the data were processed

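Hippocampal RNA was hybridised to 12 Affymetrix arrays in 4 groups of 3. The authors deposited log2 GCRMA signals, for which R 2.4.1 is named per the submitters' processing notes. GCRMA adjusts background by probe sequence, normalizes across arrays and summarises probe sets. It draws dim signals together, so differences between them are understated. The 66 control probe sets were left out. Symbols came from the platform annotation, updated through gene IDs (RefSeq, GRCm38.p6). Probe sets with log2 4 on at least 3 arrays were tested in R 4.3.3 with limma 3.58.1: a mean per group, no block, 8 residual degrees of freedom, 7 comparisons, Benjamini-Hochberg over 3541 probe sets. Probe sets were set against each other by exact permutation. The fit and the permutation were tested on simulated data.

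Deviations of same-numbered arrays from their group means correlated at 0.627, 0.383 and 0.458 for kainate in controls and 0.479, 0.0448 and -0.0779 in mutants. For genotype they correlated at 0.855, 0.470 and 0.482 after saline and 0.578, 0.333 and 0.190 after kainate. Replicate 1 stood apart in every group, so these values cannot tell pairing by number from the 2 batches. The 4 probe sets are all named by rule. Likeness took the 3 genes of highest r. List genes named are among the 4 of largest averaged kainate or genotype difference per list. Members and lists were chosen with earlier results of these data known. Of 215 list entries 213 matched a symbol and 2 a synonym. Alternatives changed the filter, normalization, block, arrays, weights and moderation.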

Additional observations from a re-analysis of the deposited data

How the results depend on the processing

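Over 36 results and 673 alternatives, leaving out 1 array kept direction and side of the threshold in 317 cases, reversed 16, brought 2 past the threshold and lost 1. The other settings were counted as 297 same, 25 reversed, 9 brought past it, 2 lost and 4 moved. They include the values of pairs within each batch, which had no test. Such a value counted as reversed only where the main result had passed and the sign turned. Else it counted as same if within the residual SD of the main value, whatever its sign, and as moved if not. The 25 thus leave out turns such as 138495_f_at minus 140195_at for kainate, at -0.11 with all arrays and 0.14 within replicate 1. All values are log2 differences, and the cause of each change was not tested. Syn1 minus Syn2 165743_at for kainate passed in every tested alternative but 1 (exact permutation, adjusted p 0.0133 to 0.0278). With labels moved only within replicate number, a replicate block added after seeing the data, the differences of 0.82 for that pair and 0.35 for 140195_at minus 165743_at did not pass (exact permutation, adjusted p = 0.0625). The first was 0.28 within replicate 1 and 1.09 within replicates 2 and 3. In limma the replicate block changed no call of the 4 probe sets: paired by number, Syn1 for averaged kainate had an adjusted p of 0.235 and Syn2 165743_at 0.191 (limma). Probe sets called for averaged kainate numbered 5 with all arrays, 9 after quantile normalization or without the doubted arrays, 20 without them and with a batch block, 56 without mutant kainate replicate 1 and 11 without mutant kainate replicate 3. For averaged genotype the count of 0 became 5 without the doubted arrays and 29 with a batch block added, none of them a synapsin.

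Array weights, whose estimate did not converge, gave 1018 called probe sets for averaged kainate and 938 for averaged genotype. With them averaged kainate gave 0.65 for Syn1 and -0.36 for Syn2 165743_at, kainate in mutants 0.78 for Syn1, 0.16 for 140195_at and -0.33 for 165743_at, and kainate in controls -0.39 for 165743_at, all past the threshold. So were 0.21 after kainate and 0.13 averaged for genotype on 140195_at. They reversed 138495_f_at for averaged kainate (0.051) and genotype (0.079), 140195_at for kainate in controls (-0.013) and Syn1 for averaged genotype (0.0090). Quantile normalization reversed 138495_f_at for averaged kainate (0.076) and genotype (0.15), Syn1 for averaged genotype (0.19), 165743_at for genotype after kainate (0.081) and 140195_at for genotype after saline (-0.00081). It also turned 138495_f_at minus 140195_at for kainate (0.014) and genotype (0.094). Median centring reversed 138495_f_at for averaged kainate (0.0043) and genotype (0.054), Syn1 for averaged genotype (0.010) and 165743_at for genotype after kainate (0.040).

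Without the doubted arrays 138495_f_at turned for averaged kainate (0.053, and 0.044 with a batch block), genotype after kainate (0.20 in both) and averaged genotype (0.26 in both), and Syn1 for averaged genotype (0.0077 in both). The pair 138495_f_at minus 140195_at turned for kainate (0.020) and genotype (0.18), and 138495_f_at minus 165743_at passed for kainate (0.32). Within replicate 1 the genotype effects of 138495_f_at minus 140195_at and minus 165743_at were 0.35 and 0.56.

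With 1 array left out, 138495_f_at ranged from -0.20 to 0.12 for averaged kainate, -0.60 to 0.060 for genotype after kainate and -0.14 to 0.19 for averaged genotype. Syn1 ranged from -0.35 to 0.042 for genotype after saline, -0.010 to 0.099 after kainate and -0.15 to 0.044 averaged. The range was -0.018 to 0.025 for 140195_at with kainate in controls and -0.15 to 0.021 for 165743_at with genotype after kainate. Pairs ranged for kainate from -0.27 to 0.094 (138495_f_at minus 140195_at), 0.15 to 0.40 (138495_f_at minus 165743_at) and 0.31 to 0.42 (140195_at minus 165743_at). For genotype they ranged from -0.26 to 0.11 (138495_f_at minus 140195_at), 0.17 to 0.29 (140195_at minus 165743_at) and -0.040 to 0.13 (Syn1 minus 165743_at). A filter at log2 6 leaves no value for 140195_at. The 3 pools a group limit precision, and the dim probe set has little signal over background.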
